A study of Caenorhabditis elegans with 2 samples.

Results

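The genes described here are 10 genes of the EGF-Ras-MAPK pathway and of the excretory duct in the nematode Caenorhabditis elegans, read in peak lists from chromatin immunoprecipitation sequencing (ChIP-seq) of the homeodomain protein MLS-2. They were listed by name, from their place in the pathway or organ and with earlier results of these data known, and all 10 matched a gene among 19973 nuclear protein-coding genes of the WBcel235 annotation. A summit, the highest point of a peak region, was given to a gene when it lay in the gene body or within 5000 bp, on either side, of the 5′ end of one of its protein-coding transcripts. Strain OP645 was used. Its integrated transgene, wgIs645, expresses MLS-2 fused at the C-terminus to a GFP-FLAG tag, and its background is unc-119(tm4063). Whole embryos of mixed stage and both sexes, 2 h after synchronization by egg bleaching, were sampled in 2 biological replicates, and an anti-GFP antibody was used. There was 1 group and no control group, so that no comparison between conditions could be made and no test was run. The transgene was present in all samples, the tissue was the entire embryo, and a signal from a few cells such as the duct cell cannot be told apart from that of other cells.

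In the pathway, the EGF ligand LIN-3 binds the receptor tyrosine kinase LET-23, the adaptor SEM-5 and the exchange factor SOS-1 load the Ras GTPase LET-60 with GTP, and LIN-45 (Raf), MEK-2 (MEK) and MPK-1 (ERK) form the kinase cascade below it. In the embryo this pathway directs a cell to become the excretory duct, a tube that drains the worm's excretory system, and in the larva it induces vulval cells. MLS-2, an HMX/NKX5 family protein, is known from genetic work to act with this pathway in duct development. LIN-48, an Ovo-family zinc finger protein, is expressed in the duct cell, and EOR-2 is a nuclear protein that acts with the zinc finger protein EOR-1 downstream of or beside Ras signalling. Many worm transcripts are trans-spliced, so that an annotated 5′ end can lie downstream of the place where transcription starts.

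Of the 10 genes, 5 carried a summit of the authors' thresholded list of 1925 peaks, the optimal list after irreproducible discovery rate (IDR) filtering. These were sem-5, sos-1, let-60, mpk-1 and eor-2, with 1 thresholded summit each. The ligand lin-3, the receptor let-23, the Raf gene lin-45, the MEK gene mek-2 and the duct factor lin-48 carried none. Among all protein-coding genes, 17.0% carried one (3397 of 19973). Both X-linked members did, against 23.1% of X-linked genes, and 3 of 8 autosomal members did, against 16.0% of autosomal genes. Long genes have longer windows. Members with a window under 12000 bp carried a summit in 2 of 4 cases (15.3% of all such genes), those between 12000 and 16000 bp in 1 of 4 (25.3%), and those above 16000 bp, mpk-1 and sos-1, in 2 of 2 (33.1%). In the stricter window from 1000 bp upstream to 100 bp downstream of a 5′ end, here called the promoter window, only eor-2 had a summit among the 10, against 5.64% of all genes.

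**Figure D1:**
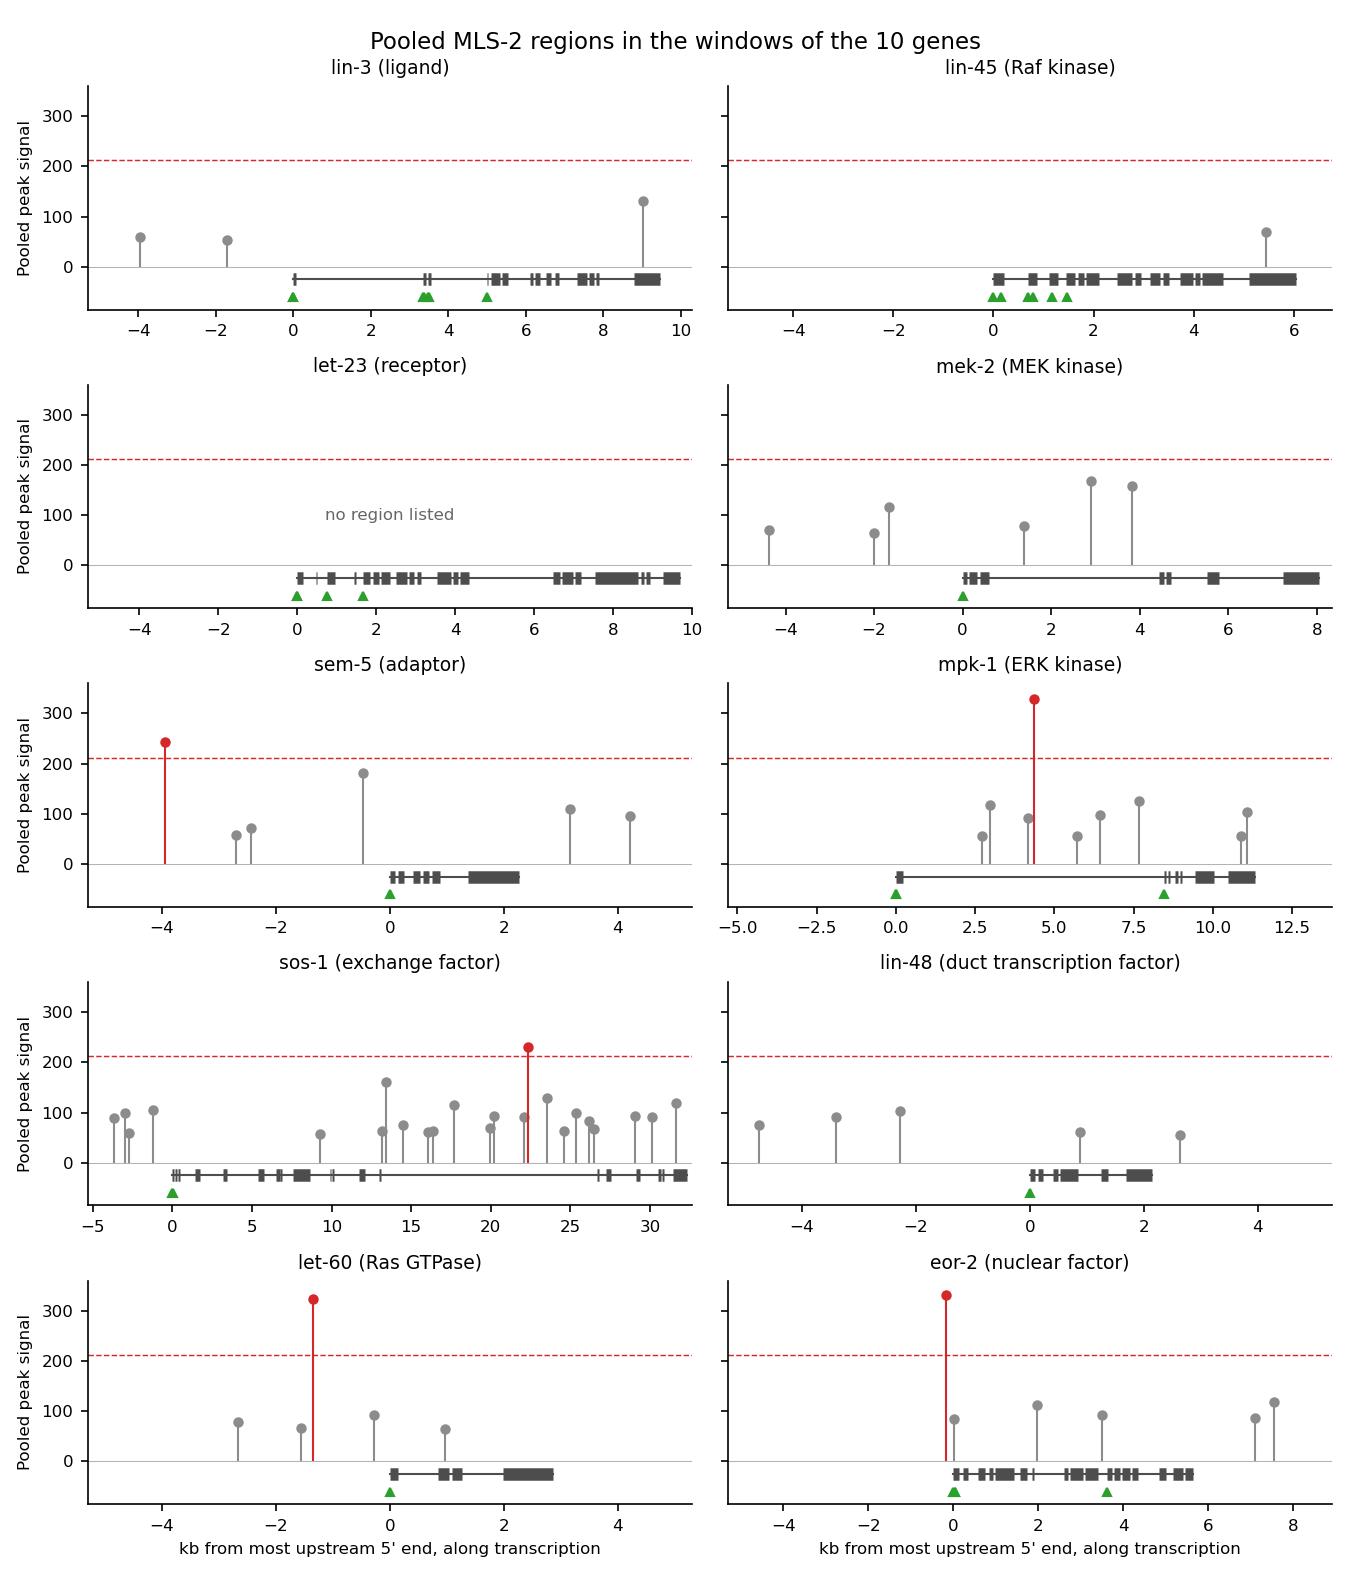
Each panel plots the pooled peak signal (vertical axis, the authors' score) against the distance in kb from the gene's most upstream 5′ end in the direction of transcription, with exons as bars, annotated 5′ ends as green triangles, thresholded summits in red and other pooled regions in grey. The dashed line marks the lowest signal in the thresholded list, 212, which the red summits of sem-5, sos-1, let-60, mpk-1 and eor-2 exceed, while let-23 has no region.

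The sequences around the thresholded summits of sem-5, sos-1, let-60 and eor-2 are shown because the window rule gave these summits to the listed genes. Each line gives the plus strand of ce11 from 100 bp before to 100 bp after the summit, read from the RefSeq copy of WBcel235, and capitals mark every match to 5 motifs searched on both strands (CAATTAA for the HMX family, TAATTA for homeodomains in general, the repeat GAGAGA, the GC-rich GGGCGG and the GATA site TGATAA).
sem-5, chrX:7965568-7965768: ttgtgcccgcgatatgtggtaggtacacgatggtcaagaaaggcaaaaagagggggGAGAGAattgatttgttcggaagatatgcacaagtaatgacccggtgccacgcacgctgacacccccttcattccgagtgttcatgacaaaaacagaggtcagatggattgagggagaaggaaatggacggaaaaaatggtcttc
sos-1, chrV:4526872-4527072: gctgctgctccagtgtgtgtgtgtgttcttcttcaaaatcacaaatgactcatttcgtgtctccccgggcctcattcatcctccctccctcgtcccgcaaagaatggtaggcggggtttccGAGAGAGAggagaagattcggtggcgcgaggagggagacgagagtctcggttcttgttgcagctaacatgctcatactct
let-60, chrIV:11692332-11692532: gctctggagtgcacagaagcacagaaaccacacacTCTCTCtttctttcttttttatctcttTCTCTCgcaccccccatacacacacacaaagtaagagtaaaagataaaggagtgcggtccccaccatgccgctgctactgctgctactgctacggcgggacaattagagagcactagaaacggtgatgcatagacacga
eor-2, chrX:14602741-14602941: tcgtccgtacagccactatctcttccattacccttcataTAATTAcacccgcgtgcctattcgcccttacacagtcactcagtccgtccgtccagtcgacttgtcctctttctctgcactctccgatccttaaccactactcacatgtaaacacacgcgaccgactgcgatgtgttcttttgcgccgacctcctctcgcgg

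The capitals in these lines are runs of GAGAGA, or TCTCTC on the other strand, in all but the eor-2 sequence. Within 50 bp of the summit, GAGAGA was present at 3 of these 4 summits, those of sem-5, sos-1 and let-60, and at 24.9% of all 1925 thresholded summits. Within 100 bp, the span of the lines shown, it was at the same 3 and at 40.9% of all summits. Overlapping matches were counted, as in sos-1, where copies start 21 and 23 bp after the summit. CAATTAA was at none of the 4 within 50 bp, against 1.71% of all summits, and also at none within 100 bp (3.84% of all). TAATTA was at none within 50 bp (3.64% of all) and within 100 bp at eor-2 alone of the 4 (8.05% of all), where it starts 61 bp before the summit. GGGCGG and TGATAA were at none of the 4 in either window, against 9.51% and 2.03% of all summits within 50 bp. The G and C content within 50 bp of the summit was 49.5% at sem-5, 60.4% at sos-1, 48.5% at let-60 and 51.5% at eor-2. All thresholded summits had a median of 49.5% and quartiles of 44.6% and 54.5%, so that sos-1 lay above the upper quartile and the other 3 between the quartiles. No tRNA, snoRNA, snRNA or miRNA gene was annotated within 200 bp of any of the 5 thresholded summits. The share of all 1925 thresholded summits near such a gene is not given here, so this does not set the 5 apart.

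The Ras gene let-60 (WBGene00002335, IV 11688227–11691088, minus strand) carried its summit in intergenic sequence. The peak at IV 11692197–11692666 had a summit 1344 bp upstream of the only annotated 5′ end and a pooled signal of 324, rank 758 of 30000 pooled regions. Of all protein-coding genes, 7.77% had a region of that rank or better in their window. In replicate 1 the summit ranked 555 with a signal of 248, and in replicate 2 it ranked 2357 with a signal of 73.6. Both replicates placed it within 2 bp of the pooled summit, but only in replicate 1 was it among the 1925 strongest regions. The signal is the authors' peak score with a scale of its own in each list, so that ranks and not signals are compared between lists. The peak is not let-60's alone. ZK792.12, on the opposite strand, has its 5′ end 1361 bp away, almost as near, and the windows of ZK792.7 and ZK792.5 also hold the summit. Nearer the let-60 5′ end, 283 bp upstream, a weaker region ranked 13601 in the pooled list, 19293 in replicate 1 and 11465 in replicate 2.

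The ERK gene mpk-1 (WBGene00003401, III 4216763–4228108, minus strand) carried its summit inside the gene. The peak at III 4223513–4223982 had a pooled signal of 329 and rank 730, with rank 712 (signal 224) in replicate 1 and rank 926 (signal 106) in replicate 2. It was therefore among the 1925 strongest regions of each replicate. Its summit lay in the first intron of the 2 long transcripts, which is 8247 bp long, 4360 and 4346 bp downstream of their 5′ ends and 4105 bp upstream of the 5′ end of the short transcript. No other protein-coding gene had the summit in its window. Of the 9 pooled regions in the mpk-1 window, 7 lay in introns and 2 in exons, and the next strongest, 779 bp upstream of the short 5′ end, ranked 6751 in the pooled list and 4059 in replicate 1 and was not found within 100 bp in replicate 2.

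The nuclear factor gene eor-2 (WBGene00001325, X 14603017–14608660, plus strand) had the summit nearest to a 5′ end. The peak at X 14602606–14603075 had its summit 176 bp upstream of the first 5′ end, with a pooled signal of 331 and rank 715, the strongest of the 10 genes in the pooled list. It ranked 579 (signal 243) in replicate 1 and 1333 (signal 91.7) in replicate 2, within 20 bp of the pooled summit in each. The only other coding gene whose window held the summit was C44H4.6, with its 5′ end 3496 bp away on the other strand. A further 5 pooled regions lay in the eor-2 window. The strongest of them, in sequence beyond the 3′ end and 808 bp upstream of rbc-1, ranked 7796 in the pooled list, 5944 in replicate 1 and 5550 in replicate 2.

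The adaptor gene sem-5 (WBGene00004774, X 7959453–7961723, minus strand) had a distal upstream summit. The peak at X 7965433–7965902 had a pooled signal of 243 and rank 1442, and ranked 1539 (signal 161) in replicate 1 and 1216 (signal 95.3) in replicate 2, among the 1925 strongest in each. Its summit lay 3945 bp upstream of the sem-5 5′ end, which was the nearest coding 5′ end, and within the noncoding RNA gene C14F5.9. Close to the 5′ end, 472 bp upstream, a second region missed the threshold with a pooled signal of 181 and rank 2771. That region ranked 2098 in replicate 1 and 27325 in replicate 2, where a stronger region with its summit a little over 100 bp away, at X 7962074, ranked 14625. By either value it stood lower in replicate 2 than in replicate 1, unlike the distal peak.

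The exchange factor gene sos-1 (WBGene00004947, V 4516944–4549291, minus strand) is the longest of the 10, with a window of 37.3 kb. Its thresholded peak at V 4526737–4527206 had a pooled signal of 231 and rank 1619, and ranked 1399 (signal 168) in replicate 1. In replicate 2 the region within 100 bp ranked 7783 (signal 47.7), while a region with its summit 162 bp away ranked 1926, a single place below the strongest 1925. The summit lay in intron 13, which is 13600 bp long, 22307 bp downstream of the nearer 5′ end. By distance alone T28F12.1, with a 5′ end 13830 bp away, was nearer, though its window did not hold the summit. The sos-1 window held 23 of the 64 pooled regions found for all 10 genes. Its density of 6.16 regions per 10 kb was the highest of the 10 genes.

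Below the threshold, the MEK gene mek-2 (WBGene00003186, I 3005403–3013448, minus strand) came closest in the pooled list and in replicate 1, but not in replicate 2. Its strongest pooled region ranked 3400 (signal 167) and lay in an intron 2905 bp downstream of the 5′ end. That summit was within the noncoding RNA gene Y54E10BL.8 and 141 bp upstream of the collagen gene col-48. The region ranked 3512 in replicate 1 and 18591 in replicate 2. A second intronic region ranked 3911 in the pooled list, 3360 in replicate 1 and 9674 in replicate 2. The best mek-2 region in the replicate 2 list was another intronic one, 2269 bp downstream of the 5′ end, at rank 7026. Its summit also lay within col-48, 495 bp downstream of the 5′ end of that gene. Of all protein-coding genes, 25.2% had a pooled region as strong as the best of mek-2.

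The remaining members had weak regions or none. For the EGF gene lin-3 (WBGene00002992, IV 11054308–11063768, plus strand), the best pooled region ranked 6230, in an exon at the 3′ side of the gene, and ranked 9215 in replicate 1 and 7724 in replicate 2. The nearest 5′ end to that summit was of ttr-16, 795 bp away. No other region in the lin-3 window was found in replicate 1. For lin-48 (WBGene00003033, III 3745438–3747572, plus strand), the best pooled region lay 2289 bp upstream and ranked 10637, with 13673 in replicate 1 and 7557 in replicate 2. The best region of lin-48 in the replicate 2 list was another, 4900 bp upstream, at rank 6064, ahead of the best of mek-2 there (7026). For the Raf gene lin-45 (WBGene00003030, IV 6742537–6748572, minus strand), the only pooled region ranked 22206, in an exon, and 63.4% of all genes had one as strong. The nearest 5′ end to that summit was of smg-7, 681 bp away. This region ranked 19814 in replicate 1 and was not found within 100 bp in replicate 2. The best region of lin-45 in the replicate 2 list was another, 23 bp downstream of a lin-45 5′ end, at rank 18165. The nearest thresholded summits to a 5′ end lay 8072 bp away for lin-45, 17071 bp for mek-2, 23628 bp for lin-3 and 44475 bp for lin-48.

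The receptor gene let-23 (WBGene00002299, II 9197512–9207213, plus strand) stood apart in that its window of 14.7 kb held 0 of the 30000 pooled regions, 0 of the replicate 1 list and 0 of the replicate 2 list. Among all protein-coding genes, 67.4% had at least 1 pooled region in their window. The nearest thresholded summit lay 59093 bp from a let-23 5′ end. The lists hold only the strongest 30000 regions, so that weaker signal at let-23 was not measured here.

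Ordered by their best pooled rank, the genes ran eor-2 (715), mpk-1 (730), let-60 (758), sem-5 (1442), sos-1 (1619), mek-2 (3400), lin-3 (6230), lin-48 (10637) and lin-45 (22206). The order of the first 5 was not kept between replicates. In replicate 1 let-60 led at 555, and eor-2 followed at 579, mpk-1 at 712, sos-1 at 1399 and sem-5 at 1539. In replicate 2 mpk-1 led at 926, and sem-5 followed at 1216, eor-2 at 1333, sos-1 at 1926 and let-60 at 2357. With 2 replicates, neighbours within the 5 strongest genes did not differ beyond the spread between replicates. Neither did lin-3 and lin-48, nor mek-2 and lin-48. In replicate 1 mek-2 ranked 3360 and lin-48 13673, whereas in replicate 2 mek-2 ranked 7026 and lin-48 6064. All 5 genes with a thresholded summit had a better rank than mek-2 in each replicate. The pooled list that separated them from mek-2 holds the reads of both replicates, so this order is not independent support.

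**Figure D2:**
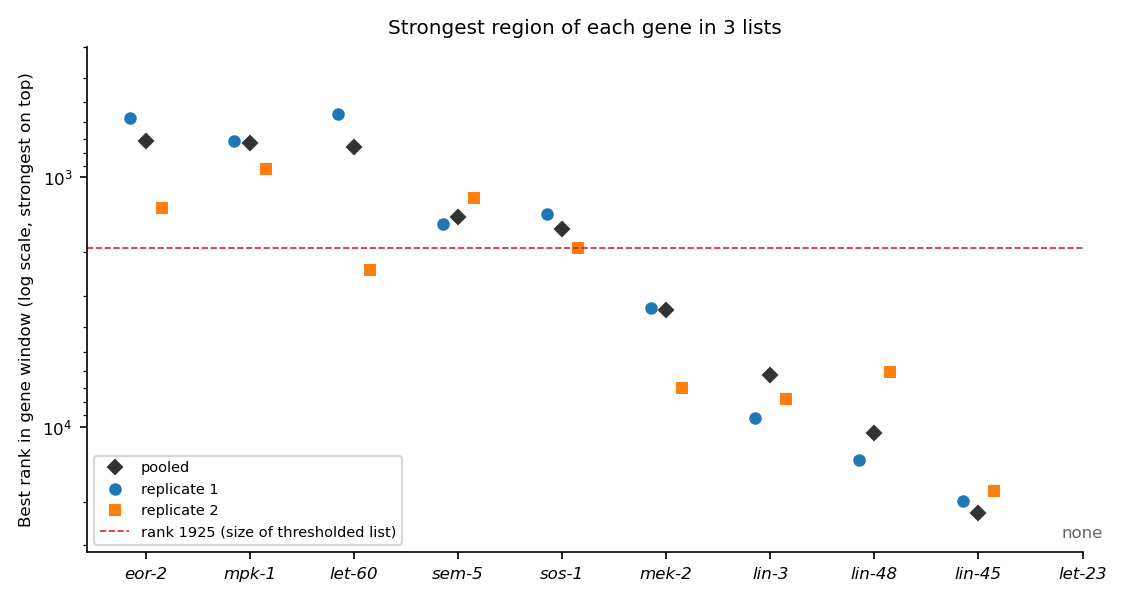
For each gene the plot gives the rank of its strongest region in the pooled list, in replicate 1 and in replicate 2 (log axis, strongest at the top), with a dashed line at rank 1925. In replicate 2 let-60 falls below the line at 2357 and sos-1 just below it at 1926, while sem-5, mpk-1 and eor-2 are above it in each list.

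Each replicate was also read alone, with its 1925 strongest regions. Replicate 1 placed a summit in the windows of 5 members, against 17.1% of all genes, and replicate 2 in those of 3, against 16.8%. Thresholded summits with a match within 100 bp among the strongest regions of each replicate were found at 3 members, sem-5, mpk-1 and eor-2, and at 12.1% of all genes. When all regions of the replicate lists were allowed, all 5 summits had a match in each. The same share over all 1925 thresholded summits is not given here, and the lists share their reads. This match is therefore not a result about these genes. Over the 64 pooled regions in the members' windows, 47 had a match within 100 bp in replicate 1 (73.4%), 32 in replicate 2 (50%) and 22 in both (34.4%). For all 30000 pooled regions these shares were 74.6%, 55.8% and 39.4%. By place, 31 of the 64 lay in introns, 21 upstream, 7 in exons and 5 downstream of the gene. The sos-1 window alone held 23 of the 64, most of them intronic. Overlapping regions were counted separately, and no share by place over all pooled regions is given here. The windows held 4.17 pooled regions per 10 kb and 0.325 thresholded summits per 10 kb, against 2.99 and 0.192 over the genome. The genome values also cover sequence outside gene windows, so these pairs are not like for like. As a median per gene window, the 10 genes had 4.74 pooled regions per 10 kb and all genes 2.00. The peaks were made with a control alignment, and how much of the signal at these genes depends on MLS-2 was not tested.

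**Figure D3:**
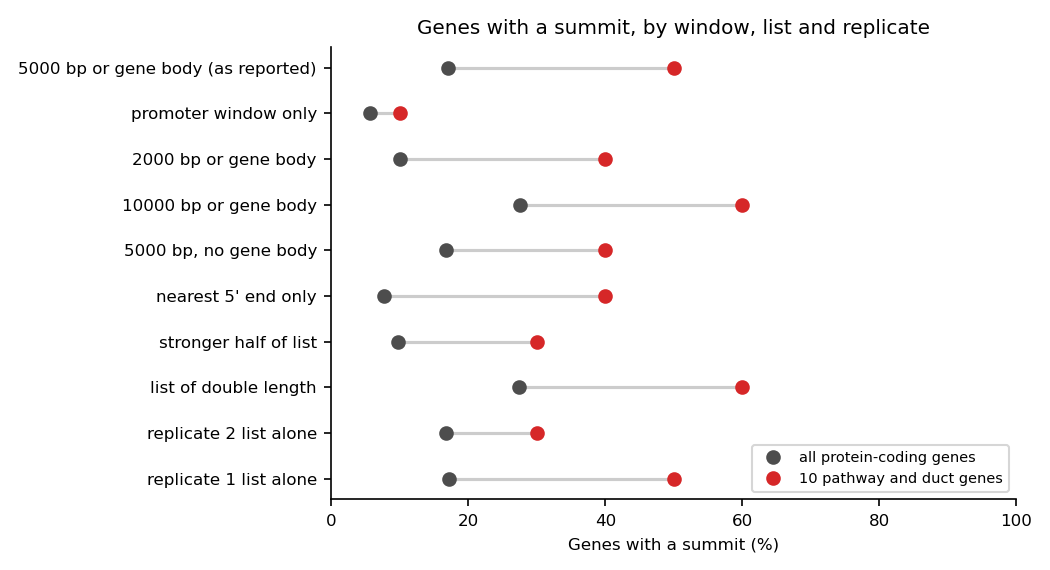
The plot gives the percentage of the 10 genes (red) and of all protein-coding genes (grey) with a summit under the window used here and under each other window, list length and replicate list. The 10 genes lie at 50% against 17.0% with the window used here and nearest to all genes in the promoter window, where 1 of the 10 and 5.64% of all genes have a summit.

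Regulators and targets of the pathway outside the 10 were read from a separate list of 29 genes. Of these, 10 (34.5%) carried a thresholded summit in the same window, against 17.0% of all genes, and 5 of the 29 had one that was among the strongest in each replicate, against 12.1% of all genes. On the X chromosome lay 6 of the 29, among them gap-2, rgl-1, sli-1 and lin-2, and 23.1% of all X-linked genes carried a summit. The first by rank was gap-2, a Ras GTPase-activating protein gene, with 4 summits in a window of 50350 bp, the strongest at rank 169 (signal 622) within 200 bp of a tRNA gene and nearest to ZK899.6. The genes lin-7, lin-2 and lin-10 encode proteins that place LET-23 at the basolateral membrane of vulval precursor cells. Their summits were at rank 468 for lin-7 (279 bp upstream, nearest to elof-1), 1287 for lin-2 (intronic) and 1637 for lin-10 (33 bp upstream), and the last was not found among the strongest regions of replicate 1. The guanine exchange factor gene rgl-1 had one at rank 806, and the Cbl-family gene sli-1, a negative regulator of LET-23, at 972. The PP2A catalytic subunit gene let-92 had one at 1376 (nearest to ech-2) and the scaffold gene cnk-1 at 1672 (271 bp upstream). The remaining summits, at dep-1 and sur-2, ranked 1800 and 1920, and that at sur-2 was nearest to uev-1. Those of cnk-1 and sur-2 were also missing from the strongest regions of replicate 1, that of let-92 from those of replicate 2 and that of dep-1 from both.

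Among 28 further genes of the excretory tubes, 9 (32.1%) carried a thresholded summit, against 17.0% of all genes, and 5 of the 28 had one among the strongest in each replicate, against 12.1% of all genes. Several of these summits lay nearer to another gene. That at ifb-1, an intermediate filament gene, ranked 245, was within 200 bp of a tRNA gene and was nearest to dmd-5. Those at aff-1, which encodes the fusogen that shapes the duct, at rank 368, vha-1 (a V-ATPase subunit) at rank 1134 and aqp-8 (an aquaporin) at rank 1322 were nearest to dnj-5, R10E11.6 and dhhc-10. Summits nearest to the tube gene itself were found at exc-7, an ELAV-family RNA-binding protein gene (rank 764, 1385 bp upstream), inx-12, an innexin gene (rank 1370, 114 bp upstream), let-4, which encodes a leucine-rich repeat protein of the luminal matrix (rank 1546, 5 bp downstream), and erm-1, an ezrin-radixin-moesin gene (rank 1615, 291 bp upstream). The ninth gene, pros-1, had one in an intron at rank 1892, nearest to itself, with a tRNA gene at most 200 bp away. The summits at inx-12, let-4, erm-1 and pros-1 were among the strongest regions of replicate 1 and not of replicate 2. Median windows were 13133 bp for the regulators, 10453 bp for the tube genes, 13333 bp for the 10 genes and 10001 bp for all genes. Of the 28 tube genes, 5 were X-linked, among them aqp-8 and let-4, and 23.1% of all X-linked genes carried a summit.

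**Figure D4:**
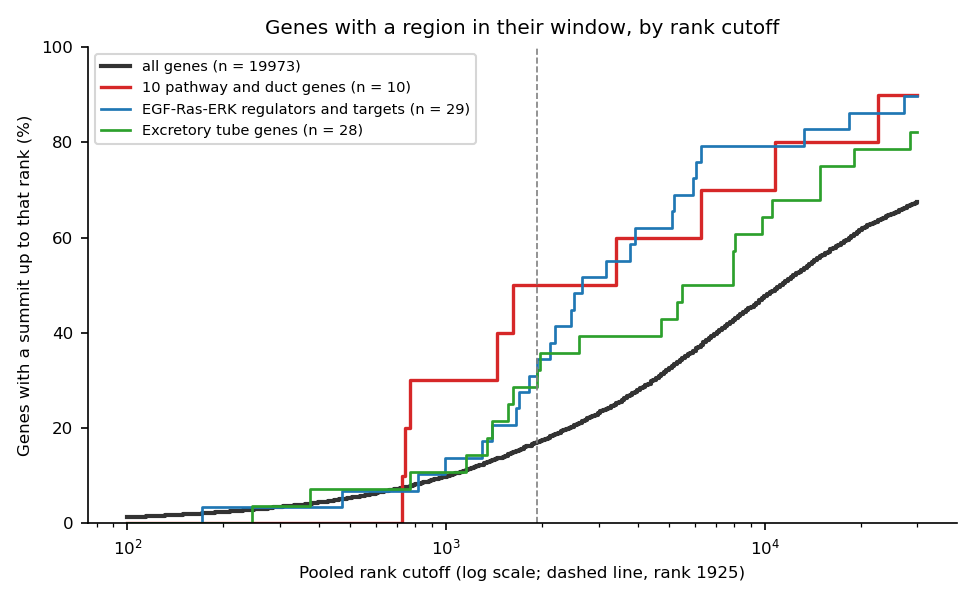
The curves give the percentage of genes with a region in their window (vertical axis) as the cutoff on the pooled rank is relaxed (log axis), for the 10 genes, the 29 regulators and targets, the 28 tube genes and all 19973 protein-coding genes. None of the 10 genes has a region above rank 715, and at the dashed line, rank 1925, the 4 sets stand at 50%, 34.5%, 32.1% and 17.0%.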

How the data were processed

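Per the labels and the deposited file descriptions, the files are narrowPeak lists on ce11, made from each replicate alignment, or both pooled, with a control alignment. Replicate and pooled lists hold 30000 regions each, called peaks and background used as IDR input, and the optimal list 1925. No peak caller, aligner, IDR cutoff or version is stated in these sources. The deposited signal value of a region is the authors' score, of unstated scaling, and served only to rank regions within a list. The optimal list was checked to be the 1925 strongest pooled regions. Read totals were not used here, so the depth is unknown and gives no interval.

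Gene windows were built from Ensembl release 115 (WBcel235) with Python 3.11.15 and pandas 2.3.3. Replicate matches needed summits within 100 bp. The window code was tested on simulated summits. No statistical test was run. The members and gene lists were chosen with earlier results of these data known, as were the groups by window length. Text names all 10 genes and up to 8 of each other list by rank, and the others with a summit (dep-1, sur-2 and pros-1) were added after their values were seen. Sequence at the mpk-1 summit is not reported here. Lists on ce10 were not used, since coordinates were not converted. The alternatives tried were 5 other gene windows, stricter and looser lists, single replicates, 3 other rules for a replicate match and a wider motif window.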

Additional observations from a re-analysis of the deposited data

How the results depend on the processing

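The count of 5 members with a thresholded summit changed with the setting, and the share of all genes under each setting is in brackets. It was 1 with the promoter window (5.64%), 4 with 2000 bp or the gene body (9.97%) and 4 without the gene body (16.8%), where sos-1 was lost. With each summit given to its nearest gene it was 4 (7.62%), and with 10000 bp it was 6 (27.6%), as lin-45 joined. It was 3 in the stronger 962 peaks (9.65%) and 6 among the 3850 strongest pooled regions (27.4%), where mek-2 joined. Leaving out replicate 1 gave 3 (16.8%) and leaving out replicate 2 gave 5 (17.1%). The 3 members found in both replicates, against 12.1% of all genes, became 2 at 50 bp between summits, 3 with any overlap and 5 with all regions of each replicate list. Shares of all genes under these other match rules are not given here, so the changed counts are not a result about the members. The median best pooled rank of the 9 members with a region, 1619, was 2771 with 2000 bp or the gene body and 1539 to 2357 without 1 replicate. The 10 regulators with a summit were 4 with the promoter window and 7 to 9 without 1 replicate. The 9 tube genes were 3 with the promoter window and 5 to 10 without 1 replicate. For both lists the shares of all genes are those in brackets above. No paired analysis was possible because there was 1 group. With 2 replicates, unknown depth and no control library analysed here, neither the error of a rank nor the part of the signal that depends on MLS-2 was measured. A missing summit in whole embryos does not show that MLS-2 is absent from a gene in a few cells.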
